A study of Mus musculus domesticus and Mus musculus domesticus x Mus musculus castaneus and Mus musculus castaneus with 10 samples.

Results

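Glutamate and GABA receptor genes were described in pluripotent stem cells of CAST/EiJ (CAST), an inbred strain of the Southeast Asian mouse Mus musculus castaneus. Members were the protein-coding genes whose symbol names a subunit of an AMPA, kainate, delta or NMDA receptor, a metabotropic glutamate receptor, or a GABA-A or GABA-B receptor, with Gabra2 and Grid2ip left out. The rule found 43 genes among the 26808 genes of the count table, of which 24 belong to glutamate receptors and 19 to GABA receptors. It used the symbols only and no measured value. Gabra5, Grik2 and Grin2a were not analysed here.

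The study sequenced RNA of undifferentiated cultures, in 2 libraries of CAST, 4 of 129S6/SvEv and 4 of 129CAS, a hybrid line from a cross of a CAST/EiJ male and a 129/SvImJ female. The 2 CAST libraries were used, and those of 129S6/SvEv and 129CAS were not analysed here, so there is no comparison between genotypes. Induced pluripotent stem cells of CAST had been reprogrammed from embryonic fibroblasts by retroviral vectors for Oct4, Sox2 and Klf4. No other treatment is given for them. They were kept on irradiated fibroblast feeders in medium with serum and leukemia inhibitory factor, and feeders were depleted before extraction. The sources used here do not say how many lines or clones the libraries came from, so the spread between them may be technical. The batch field of the labels, which is not explained there, holds a different entry for each replicate, and a difference between batches cannot be told apart from one between replicates.

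The depth was 14460393 counts in replicate 1 and 13728098 in replicate 2. Levels are given as counts per 1000000 counts of a library (CPM), on which scale 3 counts are worth 0.207 in replicate 1 and 0.219 in replicate 2. A gene above 3 counts in both libraries is called detected, and lower genes were not detectable at this depth. Of 14 stem cell markers listed, 12 were in the table and all 12 were detected, led by Utf1, Pou5f1 and Zfp42. Whether reads on Pou5f1, the gene of Oct4, came in part from the reprogramming vectors was not tested. Of 12 neuron markers, 8 were detected, led by Tubb3, Stmn2 and Nefl, while Syt1 and Chat were at 0 in both libraries, Dcx had 0 and 1 counts and Snap25 had 7 and 2. All 13 feeder fibroblast markers were detected and 7 of them were at least 2-fold higher in replicate 1, none in replicate 2. Of the stem cell markers, 2 were at least 2-fold higher in replicate 1 and none in replicate 2. Over all genes with at least 10 counts in total, these shares were 4.98% and 4.13%. Of 5 glial markers, 1 was detected, and Aqp4 and Olig2 were at 0 in both libraries. Among all protein-coding genes in the table, 69.9% were detected.

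Glutamate and GABA are the main excitatory and inhibitory transmitters of the brain. AMPA, kainate and NMDA receptors are cation channels opened by glutamate, and GABA-A receptors are chloride channels opened by GABA. Each channel is built from several subunits, and some subunits reach the membrane or form a working channel only with a partner. Metabotropic glutamate receptors and GABA-B receptors signal through G proteins instead, and GABA-B receptors need both the ligand-binding product of Gabbr1 and the G protein-coupling product of Gabbr2. The genes are best known from neurons, although several are transcribed in other cells.

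Receptor genes were sparse in CAST stem cells, and a single member, Gabbr1, held most of their reads. The 43 genes together had 2628 counts in replicate 1 and 2749 in replicate 2. This was 0.0191% ± 0.00131 (SD, n = 2) of all counts, with 0.0182% in replicate 1 (95% Wilson interval 0.0175% to 0.0189%) and 0.0200% in replicate 2 (0.0193% to 0.0208%), intervals that cover counting error only. Gabbr1 accounted for 59.1% of the receptor counts in replicate 1 (57.2% to 61.0%) and for 64.7% in replicate 2 (62.9% to 66.4%). In bulk RNA, a low level in all cells and a higher level in few cells cannot be told apart, nor can fewer cells of a type and less RNA per cell. Without Gabbr1 the share of all counts was 0.00725% ± 0.000255 (SD, n = 2).

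Of the 43 genes, 19 were detected in both libraries (44.2%), against 69.9% of the 18370 protein-coding genes in the table. A further 3 genes (Gabbr2, Grin1 and Gabrb1) were above 3 counts in 1 library. The remaining 21 were at or under 3 counts in both, and 14 of these had no count at all (32.6% of the members, against 16.8% of protein-coding genes). The median member had 3 counts in replicate 1 and 2 in replicate 2, whereas the median protein-coding gene had 111 and 95. Of the detected members, 8 had at least 100 counts over both libraries and 11 had fewer. The counts of 38 members are set out by family in the plot of receptor gene counts.

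**Figure D1:**
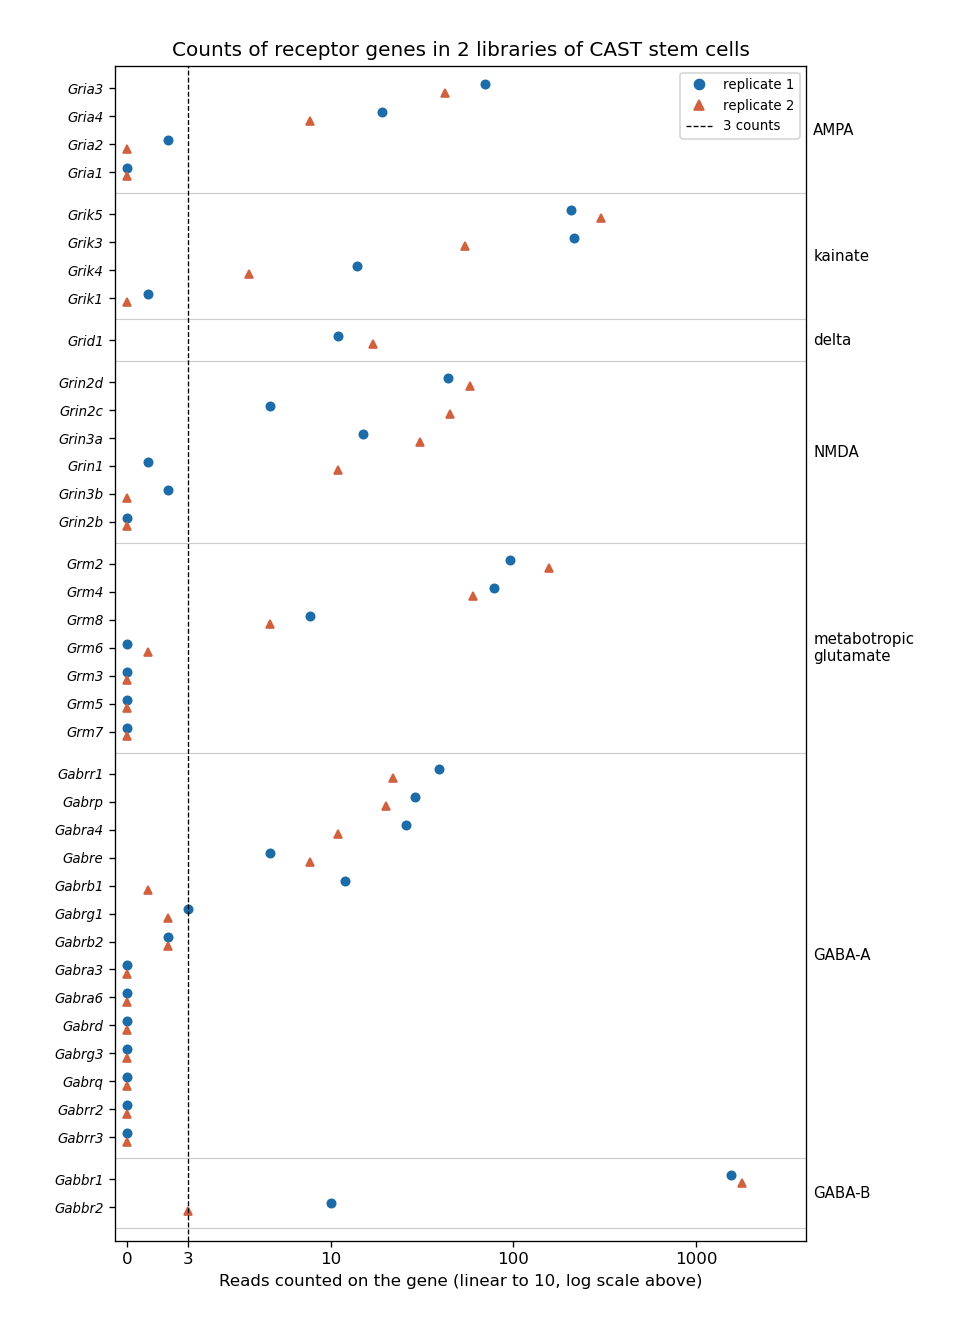
Reads counted on each of 38 receptor genes (x axis, linear to 10 counts and logarithmic above) in replicate 1 (circles) and replicate 2 (triangles) of CAST stem cells, grouped by receptor family. The dashed line marks 3 counts. Gabbr1 stands alone at the far right with 1553 and 1778 counts, and 12 of the genes shown lie at 0 in both.

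The GABA-B family was led by its ligand-binding subunit and held almost none of the transcript of the partner. In coordinates of GRCm38, Gabbr1 lies at chromosome 17, 37045966 to 37075067, and its counts were 1553 in replicate 1 and 1778 in replicate 2. Its level per kilobase of exon, the scale on which genes of unequal length can be compared, was 15.3 ± 2.01 CPM per kilobase (SD, n = 2), above 72.2% of the detected protein-coding genes. Gabbr2 (chromosome 4, 46662305 to 46991873) had 10 and 3 counts, and its level was 0.0681 ± 0.0500 CPM per kilobase. Per kilobase, Gabbr1 was 134-fold above Gabbr2 in replicate 1 (95% exact counting interval 72.5 to 279) and 510-fold in replicate 2 (174 to 2477). Both libraries thus placed the subunits apart by far more than counting error, while the size of the gap in replicate 2 rests on the 3 counts of Gabbr2.

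Kainate receptor genes came next by summed level, 4.68 ± 0.129 CPM per kilobase (SD, n = 2) over 4 genes. Grik5 (chromosome 7, 25009849 to 25072346) codes for a high-affinity subunit that forms channels only together with a product of Grik1, Grik2 or Grik3, and it had 206 and 302 counts. Grik3 (chromosome 4, 125490700 to 125714173), which can form channels by itself, had 215 and 54 counts. Replicate 1 was high for Grik3 and replicate 2 for Grik5, so the members differed in opposite directions while the sum of the family stayed close. Per kilobase, Grik5 was 1.66-fold above Grik3 in replicate 1 (95% exact counting interval 1.37 to 2.02) and 9.71-fold in replicate 2 (7.25 to 13.2). Grik4, the other high-affinity subunit gene, had 14 and 6 counts, and Grik1 had 1 and 0.

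In the AMPA family, whose channels carry most fast excitation in the brain, 2 of 4 genes were detected. Gria3 (chromosome X, 41400854 to 41678601) had 70 and 42 counts, and Gria4 had 19 and 9. Gria2, whose edited subunit makes AMPA channels impermeable to calcium, had 2 and 0 counts, and Gria1 had none. The delta receptor gene Grid1 had 11 and 17 counts.

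NMDA receptors all contain the product of Grin1, and this gene was close to the limit of detection while genes of its partner subunits were above it. Grin1 (chromosome 2, 25291181 to 25319187) had 1 count in replicate 1 and 11 in replicate 2. Grin2d (chromosome 7, 45831883 to 45878378), a glutamate-binding subunit gene, had 44 and 58 counts. Per kilobase it was 64.1-fold above Grin1 in replicate 1 (95% exact counting interval 10.9 to 2589) and 7.68-fold in replicate 2 (3.99 to 16.2). Grin2d was thus the higher gene in both libraries, although the single Grin1 count leaves the ratio of replicate 1 poorly known. The size of the gap also depends on the length used. Mean levels were 0.546 CPM per kilobase for Grin2d and 0.0449 for Grin1 by the union of exons. By the longest transcript they were 0.669 and 0.102. Grin2c, another glutamate-binding subunit gene, had 7 and 45 counts, and Grin3a, a glycine-binding subunit gene, had 15 and 31. Grin2b had no count and Grin3b had 2 and 0. The exons of Grin1 share 13.5% of their bases with the antisense gene Grin1os and those of Grin2d 9.66% with the antisense gene Gm45441. The strand setting of the counting is not given in the sources used here, so reads of these overlaps cannot be assigned to a strand.

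Metabotropic glutamate receptors fall into group I, which activates phospholipase C, and groups II and III, which inhibit adenylyl cyclase. Grm5, of group I, had no count in either library, and transcripts of the other two groups were found. Grm2 (chromosome 9, 106643095 to 106656082), of group II, had 96 and 157 counts, and its level of 1.85 ± 0.693 CPM per kilobase (SD, n = 2) was the third highest among receptor genes. The antisense gene Gm28111 overlaps 9.60% of its exon bases. Grm4 (chromosome 17, 27422387 to 27521403), of group III, had 78 and 60 counts, and Grm8 had 9 and 7. Grm3 and Grm7 had none, and Grm6, the receptor of retinal bipolar cells, had 0 and 1. The libraries were close for Grm4, where the counting interval of their ratio included equality, and replicate 2 was the higher for Grm2.

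GABA-A receptors of the brain commonly combine alpha, beta and gamma subunits. Of the alpha genes, Gabra4 (chromosome 5, 71569749 to 71658308) had 26 and 11 counts, while Gabra3 and Gabra6 had none. Of the beta genes, Gabrb1 had 12 and 1 counts, and Gabrb2 had 2 in each library. Of the gamma genes, whose products place the receptor at synapses, Gabrg1 had 3 and 2 counts and Gabrg3 had none. Not every alpha, beta and gamma gene is named here. Among those named, Gabra4 was the one gene with more than 3 counts in both libraries, and replicate 1 was the higher.

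Less common GABA-A subunits were also found. Gabrr1 (chromosome 4, 33132521 to 33163588), a rho subunit gene best known from the retina, had 39 and 22 counts, and Gabrr2 and Gabrr3 had none. Gabrp, whose pi subunit is known mainly from tissues outside the brain, had 29 and 20 counts, and Gabre had 7 and 9. Gabrd and Gabrq had none. At 0.940 ± 0.339 CPM per kilobase (SD, n = 2), Gabrr1 was above Gabrp (0.513 ± 0.115) in both libraries.

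Several GABA-A genes stand less than 1 Mb from another, and detected genes had neighbours that were not. On chromosome X (72255999 to 72842602) Gabre was detected and Gabra3 and Gabrq were not, and on chromosome 4 (33062999 to 33163588) Gabrr1 was and Gabrr2 was not. On chromosome 5 (70751047 to 72149037) Gabra4 was detected, while Gabrb1 passed 3 counts in replicate 1 only and Gabrg1 in neither. The exons of Gabrb1 share 46 bases with those of Gabra4 on the opposite strand. Gabra2 did not enter this comparison.

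Ordered by level per kilobase, the receptor genes fell off steeply below Gabbr1. Gabbr1 and Grik5 (3.51 ± 1.06 CPM per kilobase, SD, n = 2) each had a range over the libraries that lay wholly above that of the next gene. The ranges of Grik3 (1.05 ± 0.862) and Gabrr1 overlapped, as did those of Gabrr1 and Grm4 (0.817 ± 0.121), and every neighbour from Grin2d (0.546 ± 0.126) down to Gabra4 (0.214 ± 0.116) overlapped the next, with a gap between Grm4 and Grin2d. The order within these stretches is therefore not resolved by 2 libraries. Of the 19 detected members, 18 lay under 5.60 CPM per kilobase, the median of the detected protein-coding genes. The plot of levels per kilobase shows 11 of the 12 highest members beside that median.

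**Figure D2:**
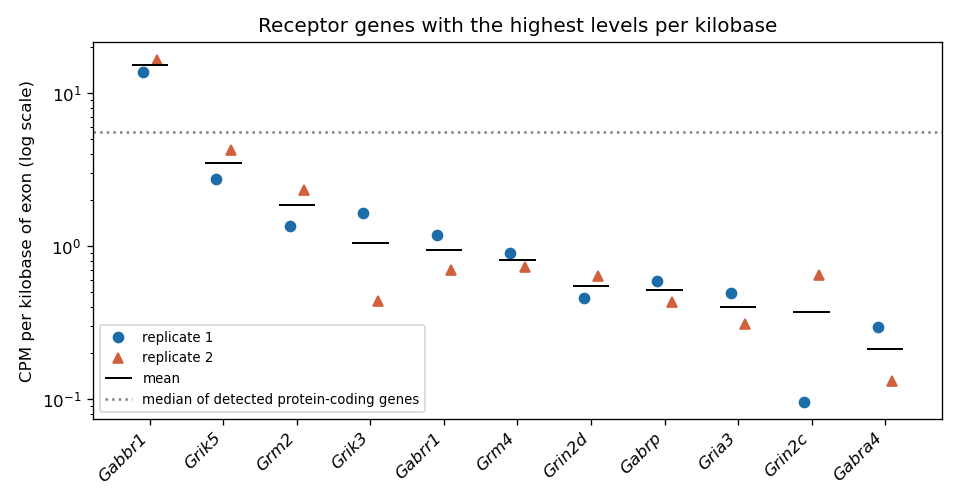
Level of 11 of the 12 highest receptor genes in CPM per kilobase of exon (y axis, log scale), with replicate 1 as circles, replicate 2 as triangles and the mean as a bar. The dotted line is the median of the detected protein-coding genes, 5.60 CPM per kilobase, and Gabbr1 is the only member above it.

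Both libraries held mostly the same receptor genes, with 19 detected in both and 3 in 1 of them, and their levels were compared next. Ratios of replicate 1 to replicate 2 used 22 members with at least 10 counts in total, edgeR's TMM scaling and a pseudocount of 0.5 CPM. With 1 library on each side they have no replicate check, and they compare libraries rather than conditions. The median log2 ratio was 0.17 over these members and 0.0047 over the 13824 genes with as many counts. Of the 22 members, 4 were at least 2-fold apart (18.2%), where 9.11% of all such genes were. The count depends on the pseudocount, with 7 members at 0.1 CPM and 2 at 2 CPM, where 13.1% and 3.91% of all such genes were, and it was 1 of 11 without members whose exons overlap another gene. Apart by more than the 95% counting interval were 11 members (50.0%), against 57.1% of all such genes.

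Grik3 was higher in replicate 1, with a log2 ratio of 1.74 and a counting interval of 1.42 to 2.32. Gabrb1 also passed 2-fold in that direction, at 1.19 from 12 counts and 1, and its interval of 0.69 to 8.87 reached below 2-fold. The order of these genes depends on the pseudocount, since the ratio of a gene with 1 count is drawn toward 0 by it. At least 2-fold higher in replicate 1 were thus 2 members, where 4.98% of all genes were. Toward replicate 2, Grin2c was at -1.98 (-4.21 to -1.66) and Grin1 at -1.21 (-9.02 to -0.81), against 4.13% of all genes past 2-fold in this direction. Grik3 and Grin2c were the only members whose whole counting interval lay past 2-fold. Feeder fibroblast markers were higher in the same library as Grik3, with a summed level of 957 CPM per kilobase in replicate 1 and 608 in replicate 2, the summed stem cell markers had 2583 and 2097, and the summed neuron markers had 69.2 and 47.6. Their part in the difference of Grik3 was not tested.

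Directions by family are given as counts, with no test. All 4 NMDA genes with at least 10 counts (Grin2d, Grin2c, Grin3a and Grin1) were higher in replicate 2, and the 6 genes of the family had 69 counts in replicate 1 and 145 in replicate 2. Of 7 GABA-A genes, 6 were higher in replicate 1 and Gabre in replicate 2. Both AMPA genes were higher in replicate 1. Kainate and metabotropic glutamate receptor genes were each higher in replicate 1 in 2 of 3 and in replicate 2 in 1 of 3, GABA-B genes were split 1 to 1, and Grid1 was higher in replicate 2. Over all 22 members, 13 were higher in replicate 1 and 9 in replicate 2. Most of these single differences were within 2-fold, as the plot of ratios shows. Intervals that included equality were, among others, those of Grin2d, Gabrr1, Gabrp, Gabre, Gria4, Grid1, Grik4, Gabbr2, Grm4 and Grm8. The direction of these genes is thus not resolved even from counting error.

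**Figure D3:**
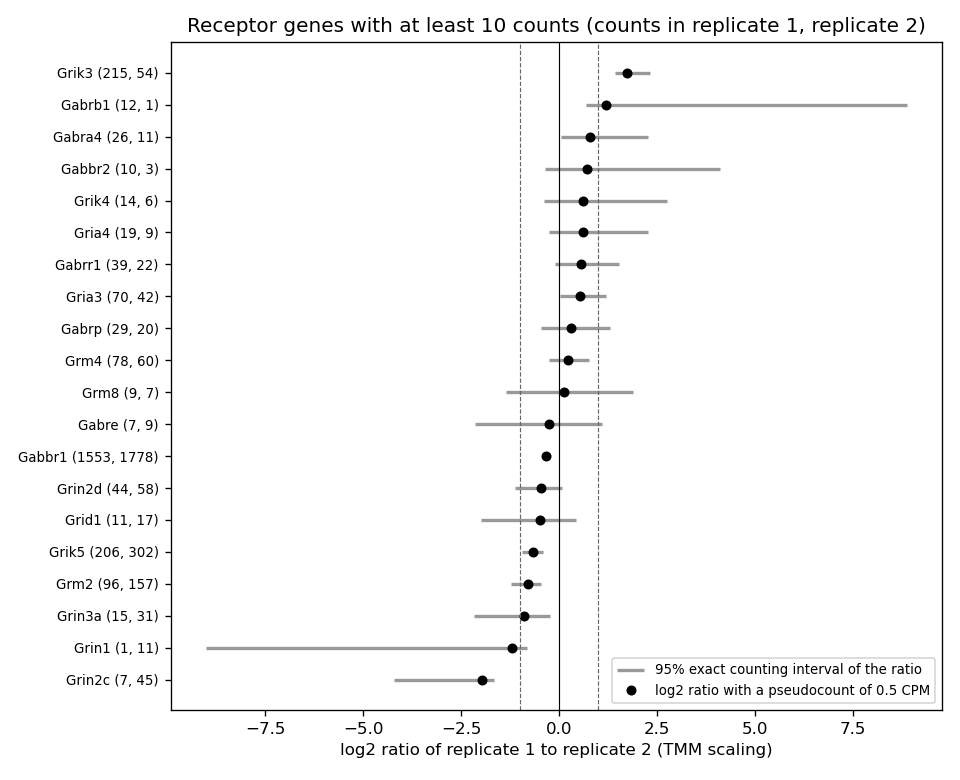
Log2 ratio of replicate 1 to replicate 2 (x axis, TMM scaling) for 20 of the 22 receptor genes with at least 10 counts, with the counts of both libraries in parentheses. Points include a pseudocount of 0.5 CPM, grey bars are 95% exact counting intervals, and dashed lines mark 2-fold. The intervals of Grik3 (1.42 to 2.32) and Grin2c (-4.21 to -1.66) lie wholly past 2-fold.

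Partner genes, which act together with these receptors, were mostly detected. Of 57 partner genes in the table, 40 were detected (70.2%), close to the 69.9% of all protein-coding genes. The partners included auxiliary subunits, scaffolds, ligands, enzymes and transporters, and many of them also serve cells without synapses. Of the 41 with at least 10 counts, 2 were at least 2-fold higher in replicate 1 (Shank2 among them) and Cbln1 in replicate 2, where 4.98% and 4.13% of all genes were.

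Of the genes for auxiliary subunits of AMPA and kainate receptors, 5 of 11 were detected. The share of 69.9% over all protein-coding genes stands beside this count and those of the classes below. Cacng7, of the family of transmembrane AMPA receptor regulators, had 115 and 162 counts, and Cnih2, which aids export of AMPA receptors from the endoplasmic reticulum, had 79 and 77. Cacng2, the founding member of the first family, had 1 and 2 counts. Neto2, which binds kainate receptors, had 96 and 72.

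Of the genes for scaffold proteins of glutamate receptors, 12 of 13 were detected. Dlg1 was the highest per kilobase with 1734 and 1368 counts, followed by Pick1 with 772 and 829. Dlg4, which codes for the main scaffold of excitatory synapses, had 73 and 48 counts, and Dlg2 had none. Cbln1, a secreted ligand of delta receptors, had 134 and 257 counts, and Cbln4 had 1 and 0.

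Among partners of GABA receptors, 9 of 11 genes were detected. Gabarap, which takes part in GABA-A receptor traffic and in autophagy, had 753 and 897 counts, Clptm1, which holds back GABA-A receptors on their way to the surface, had 1802 and 2010, and Gphn, the scaffold of inhibitory synapses, had 211 and 254. Transcripts for auxiliary subunits of GABA-B receptors were low, with 24 and 25 counts for Kctd12, 2 and 3 for Kctd8 and 1 and 0 for Kctd16. Gabbr1 was thus high without a like level of either its partner subunit gene or these auxiliary genes.

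Of the genes for enzymes of the transmitters, 6 of 7 were detected. Glul, which makes glutamine from glutamate, had 1669 and 2635 counts, and Srr, whose product makes the NMDA receptor ligand D-serine, had 1133 and 1330. Of the genes for GABA synthesis, Gad1 had 177 and 291 counts and Gad2 had 2 and 1. Of the transporters, 7 of 12 were detected, led by the glutamate transporter Slc1a3 with 1165 and 912 counts. Of the vesicular glutamate transporters, Slc17a7 had 29 and 51 counts, and Slc17a6 and Slc17a8 had none. The plot of receptor and partner genes sets these levels side by side.

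**Figure D4:**
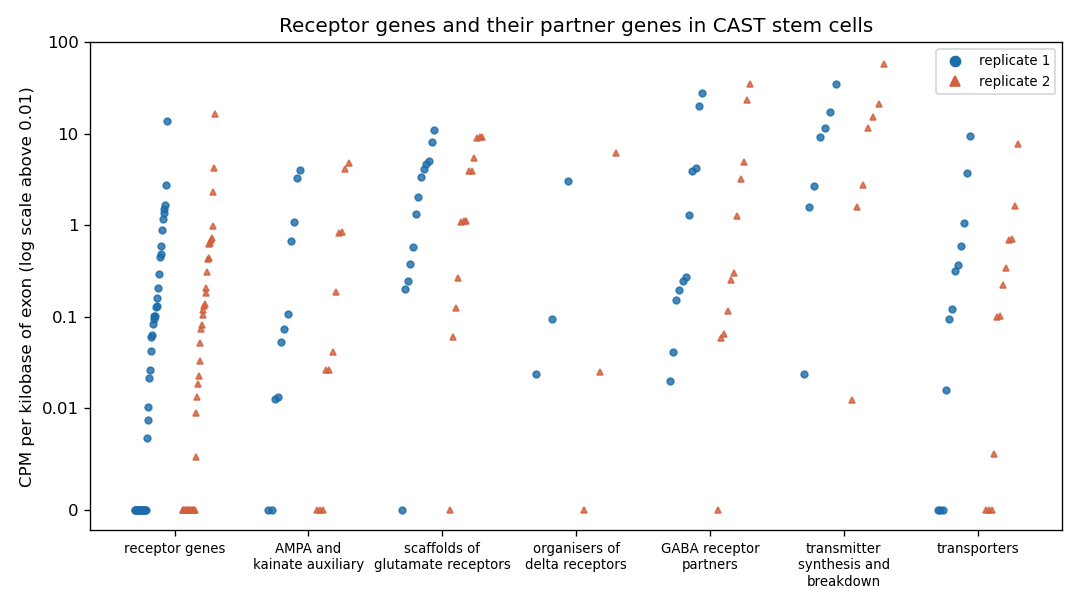
Level per gene in CPM per kilobase of exon (y axis, log scale above 0.01) for the 43 receptor genes and the 57 partner genes by class, with replicate 1 as circles and replicate 2 as triangles, each sorted from low to high. Enzymes such as Glul and Srr and partners such as Gabarap lie above Gabbr1, while many receptor genes lie at 0.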

How the data were processed

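RNA-seq counts of 2 libraries of CAST stem cells were used. Per the paper's methods the authors used STAR with the CAST/EiJ genome on paired-end reads, dropped reads of ambiguous position and counted the others by gene, whereas the submitters' processing notes name TopHat2 2.1.1, SAMtools and HTSeq with GRCm38 and mm10. The authors deposited counts per Ensembl gene without normalization. A further 7 per-sample columns match no sample used here and were left out.

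Symbols, positions and lengths came from GENCODE M21 (GRCm38), where 26807 of 26808 identifiers matched. Levels are CPM, or CPM per kilobase of the union of exons. Counting intervals are exact (Clopper-Pearson) at 95% and cover counting error only. TMM factors came from edgeR 4.0.16, size factors from DESeq2 1.42.0 (R 4.3.3), and the rest from Python 3.11.15 with scipy 1.17.1, numpy 2.4.6, matplotlib 3.10.9 and pandas 2.3.3. The code for ratios and intervals was run on simulated counts that held counting error only. Such counts cannot show how the ratios behave on libraries with a wider spread. No test between groups was run, since 1 group was used.

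Members and lists were chosen with earlier results of these data known. All members could be named, with counts for detected members and levels for the 12 highest, except that some genes of the lists are not reported here by name. Partner genes were named from the 12 highest per kilobase, and others (Cacng2, Cacng7, Cnih2, Gphn, Cbln4, Dlg2, Dlg4, Kctd genes, Gad1, Gad2, Neto2, Shank2, Slc17a6, Slc17a7, Slc17a8 and the marker Snap25) after their values were seen. Alternatives were other scalings, pseudocounts, count minimums and gene lengths, and each library left out. The planned description of promoters and sequences of the receptors was not made. No stretch of 100 bases was shared between transcripts of 2 members, but 11 members shared at least 1 with another gene, among them Grin3b (14.9% of its stretches, with Tmem259), Grm6 (9.46%) and Grm2 (7.44%).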

Additional observations from a re-analysis of the deposited data

How the results depend on the processing

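No paired analysis was possible because the libraries used form 1 group. The number of detected receptor genes was 19, and 14 when more than 10 counts per library were asked for. With either library left out, it ranged from 20 to 21. Without the members whose exons overlap another gene, an alternative chosen after seeing the data, 10 genes of 24 were detected (41.7%), a smaller number since fewer genes were counted. The share of counts was 0.0192% on chromosomes 1 to 19 and ranged from 0.0182% to 0.0200% with either library left out. The median log2 ratio of the receptor genes stayed between 0.11 and 0.22 under 6 alternatives. The number of members at least 2-fold apart was 4 under 3 scalings, 7 with a pseudocount of 0.1 CPM (where 13.1% of all genes were), 2 with 2 CPM (3.91%), and 1 of 11 without overlapping genes. Grik3 and Grin2c were past 2-fold under all 3 pseudocounts. Gabbr1 was the highest gene per kilobase with the longest transcript as length and in each library alone, and at least 11 of the 12 highest genes were shared with these orders. With 14 genes at 0 and 11 detected genes under 100 counts in total, depth limits statements on low members to their counts.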
